A study of Homo sapiens with 12 samples.

Results

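Aminoacyl-tRNA synthetases attach each amino acid to its matching transfer RNA, the step that supplies the ribosome with charged tRNA. The list examined here holds 35 genes chosen by name: 19 cytosolic synthetases, 3 scaffold factors of the multisynthetase complex and 13 mitochondrial synthetases. Of these, 27 were measured by a probe set assigned to a single gene, among 11963 genes measured that way on the array. The measured members were 16 cytosolic synthetases, the scaffold factor AIMP1 and 10 mitochondrial synthetases. MARS1, QARS1 and TARS2 lay only on probe sets listed for several genes, and FARSB, AIMP2, EEF1E1, AARS2 and VARS2 had no probe set listed for them, so these 8 genes were not analysed here.

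Transcripts were measured on 12 oligonucleotide microarrays in RCC4, a cell line derived from a human clear cell renal carcinoma. Cells were transfected for 2 days with an siRNA against WWTR1 (siTAZ), which encodes the Hippo pathway coactivator TAZ, or with a non-targeting siRNA (siNT), and then received 1 µM erastin or its solvent DMSO (vehicle) for 7 hours. Erastin blocks system xc-, the transporter that brings cystine into the cell. The 4 groups, of 3 arrays each, were siTAZ with erastin, siNT with erastin, siTAZ with vehicle and siNT with vehicle, and the submitters describe the arrays of a group as biological triplicates. All 4 groups are transfected cultures of a single line, how many siRNA sequences were used is not stated in the labels, and no untransfected culture is among the groups.

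Cytosolic and mitochondrial protein synthesis mostly use separate synthetases encoded by separate nuclear genes. GARS1 and KARS1 are exceptions, since each gene encodes both the cytosolic and the mitochondrial enzyme. In the cytosol, several synthetases are held together in the multisynthetase complex by the AIMP proteins. The others are called free enzymes here, which means only that they lie outside this complex. Many genes of cytosolic synthetases are known targets of ATF4, the transcription factor of the amino acid and integrated stress responses, which binds composite C/EBP-ATF elements. Among the 16 measured cytosolic synthetases, EPRS1, IARS1, KARS1, LARS1 and RARS1 belong to the complex, and AARS1, CARS1, FARSA, GARS1, HARS1, NARS1, SARS1, TARS1, VARS1, WARS1 and YARS1 are free enzymes.

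Values are log2 signals, normalised by the submitters, of 1 probe set per gene, so a difference of 1 is a doubling of signal. Signals of different genes depend on their probes, and were set against each other only to tell bright genes from dim ones. A gene is called where the Benjamini-Hochberg adjusted p of limma, computed over all 11963 genes of a contrast, was under 0.05. Changes are given as log2 difference ± standard error from that fit. Because the RNA came from whole cultures, less RNA per cell and fewer cells carrying it cannot be told apart.

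The siRNA target was low where the labels place it. WWTR1 read 9.10, 9.09 and 9.25 in siTAZ erastin cultures, against 12.35, 12.19 and 12.27 in siNT erastin cultures, and 9.46, 9.31 and 9.26 in siTAZ vehicle cultures, against 12.33, 12.29 and 12.24 in siNT vehicle cultures. The 7 measured genes of the renal carcinoma line list averaged 11.0 to 11.12 on every array, whereas the leukocyte, endothelial and erythroid marker lists averaged 4.30 to 5.79, below the median gene at 7.26. That even average hides single genes that moved with siTAZ. Of the 7, 3 rose and 1 fell under vehicle, where 14.7% of all genes rose and 13.9% fell. Under erastin 3 rose and 2 fell, where 15.6% rose and 12.6% fell. Under vehicle KRT18 changed by −1.06 ± 0.06 and CDH6 by 0.77 ± 0.05. RNA quality was not even across groups by 1 measure. The difference between the 3′ and 5′ actin control probe sets averaged 3.25 ± 0.33 in siTAZ erastin, 2.26 ± 0.69 in siNT erastin, 2.65 ± 0.04 in siTAZ vehicle and 2.68 ± 0.28 in siNT vehicle arrays (SD, n = 3 each), while that of GAPDH was 0.15 to 0.20 in all groups.

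The first comparison asked how WWTR1 silencing altered synthetase transcripts in the absence of erastin. Cytosolic synthetases were lower in siTAZ cells almost throughout: 14 of the 16 fell and none rose, where 13.9% of all genes fell and 14.7% rose. These 16 genes were bright, with 61.0% (FARSA) to 98.9% (KARS1) of genes dimmer. For the mitochondrial synthetases that share ran from 1.2% (RARS2) to 91.8% (IARS2). Bright genes were called more often: without genes under the 50th percentile of signal, 1648 of 5982 fell and 1622 rose. All 11 free enzymes fell, and so did LARS1, EPRS1 and KARS1 of the complex. The median over the 16 genes was −0.32, against −0.01 over all genes. The mitochondrial synthetases were mixed: 3 of 10 fell, 1 rose, and their median was −0.04.

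VARS1, which charges valine tRNA, had the largest change among the cytosolic enzymes. Its signal was 8.73, 8.75 and 8.85 in siTAZ vehicle cultures, against 9.50, 9.49 and 9.42 in siNT vehicle cultures. This was a fall to 62% of the siNT signal (−0.69 ± 0.07, adjusted p = 1.65e-05), with a gap between the groups far wider than the spread within them. A second, dimmer VARS1 probe set gave −0.10 ± 0.07 and was not called in a fit of all probe sets, so the size of the VARS1 change depended on the probe set. LARS1, the leucine enzyme of the complex, read 9.71, 9.67 and 9.61 in siTAZ vehicle and 10.29, 10.23 and 10.17 in siNT vehicle cultures. It fell by 0.56 ± 0.06 (adjusted p = 1.27e-05), measured by a probe set of a design type that can cross-hybridise.

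CARS1, the cysteine enzyme, varied little between the arrays of a group. It read 11.47, 11.47 and 11.48 in siTAZ vehicle cultures, against 12.03, 12.11 and 12.04 in siNT vehicle cultures, and fell to 66.6% of the siNT signal (−0.59 ± 0.05, adjusted p = 2.92e-06). YARS1, the tyrosine enzyme, read 11.91, 11.95 and 11.97 in siTAZ vehicle and 12.46, 12.51 and 12.39 in siNT vehicle cultures (−0.51 ± 0.05). WARS1, the tryptophan enzyme and also a known interferon-inducible gene, read 9.12, 9.12 and 9.13 in siTAZ vehicle and 9.60, 9.66 and 9.61 in siNT vehicle cultures (−0.50 ± 0.05). In each of these genes the highest siTAZ array lay below the lowest siNT array. TARS1, the threonine enzyme, read 11.07, 11.04 and 11.08 in siTAZ vehicle and 11.46, 11.46 and 11.43 in siNT vehicle cultures (−0.39 ± 0.05, adjusted p = 8.92e-05).

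The other called cytosolic enzymes changed by smaller amounts, between −0.33 and −0.17. SARS1, AARS1, FARSA (the catalytic alpha subunit for phenylalanine) and GARS1 fell by 0.33, 0.33, 0.32 and 0.29. EPRS1, the bifunctional glutamate and proline enzyme, fell by 0.26, HARS1 by 0.22, KARS1 by 0.18 and NARS1 by 0.17. NARS1 lost its call when any of 4 arrays was left out, siNT vehicle 1 or 2 or siTAZ vehicle 1 or 2. Of the 2 cytosolic genes that were not called, IARS1 stood at −0.13 ± 0.05 (adjusted p = 0.0559) and RARS1 at −0.05 ± 0.06, with a 95% confidence interval of −0.17 to 0.07. The siTAZ and siNT arrays did not overlap, with siTAZ lower, in 15 of the 16 genes, where 22.4% of all genes were separated in this direction.

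By location, the median was −0.18 over the 5 measured complex members, which ranged from −0.56 to −0.05, and −0.33 over the 11 free enzymes, which ranged from −0.69 to −0.17. The 2 ranges overlapped, and the difference between them was not tested. In a fit of all probe sets, dimmer ones of the complex members EPRS1 (−0.38 ± 0.05 and −0.42 ± 0.11) and KARS1 (−0.32 ± 0.07) fell further. Among free enzymes, a dimmer probe set fell further for CARS1 (−0.72 ± 0.08) and less for VARS1. It was similar for FARSA (−0.33 ± 0.11) and WARS1 (−0.48 ± 0.08). The medians by location therefore depended on the probe sets chosen. By catalytic fold, 6 of 8 class I enzymes and 8 of 8 class II enzymes fell, with medians of −0.50 and −0.31. The bifunctional EPRS1 was placed in class I by its glutamate part alone, here and below. AIMP1, the scaffold factor, read 10.00, 9.97 and 9.96 in siTAZ vehicle and 9.87, 9.84 and 9.95 in siNT vehicle cultures (0.09 ± 0.06, adjusted p = 0.339). A second AIMP1 probe set of nearly the same brightness gave −0.30 ± 0.08 and was called in a fit of all probe sets (adjusted p = 0.0202), so the direction of AIMP1 was not settled by these arrays.

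NARS2, HARS2 and IARS2 stood apart from the rest of their class. NARS2, which charges mitochondrial asparagine tRNA, read 7.60, 7.66 and 7.42 in siTAZ vehicle cultures, against 8.12, 8.19 and 8.10 in siNT vehicle cultures (−0.57 ± 0.08, adjusted p = 0.000209). HARS2, its histidine counterpart, read 9.46, 9.60 and 9.54 in siTAZ vehicle and 10.06, 10.08 and 10.12 in siNT vehicle cultures (−0.55 ± 0.05, adjusted p = 9.68e-06). IARS2, the isoleucine enzyme, read 10.81, 10.77 and 10.86 in siTAZ vehicle and 11.04, 11.06 and 11.06 in siNT vehicle cultures (−0.24 ± 0.05, adjusted p = 0.00132). These falls were as large as those of many cytosolic enzymes, and no arrays overlapped between the groups. Such separation with siTAZ lower was found in 3 of the 10 mitochondrial enzymes and in 22.4% of all genes, which is not far from it.

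WARS2, the mitochondrial tryptophan enzyme, went the other way. It read 8.30, 8.39 and 8.29 in siTAZ vehicle and 8.13, 8.08 and 8.23 in siNT vehicle cultures, a rise of 0.18 ± 0.06 (adjusted p = 0.0448) that was lost in 11 of 25 other settings. The 5 other mitochondrial enzymes above the floor of the array, CARS2, FARS2, LARS2, SARS2 and YARS2, lay between −0.09 and 0.11 and were not called. RARS2 had group means of 2.57 to 2.68, with 1.2% of genes dimmer, and no size is given for it. It was still included in the counts, medians and averages of the mitochondrial class.

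**Figure D1:**
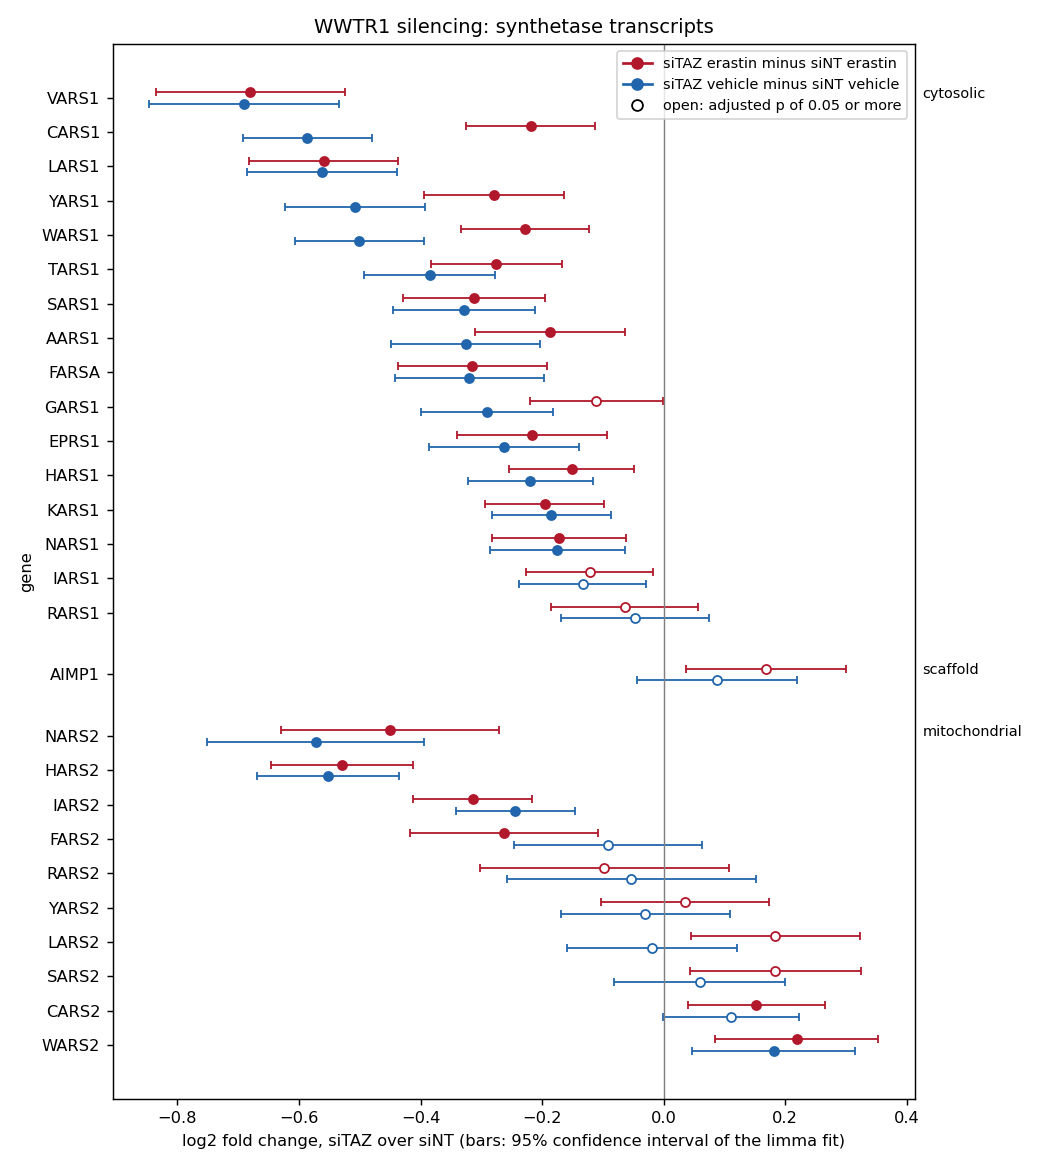
Log2 change of each measured member between siTAZ and siNT cells under erastin (red, upper point of each pair) and under vehicle (blue, lower point), with bars for the 95% confidence interval of the limma fit and open points for genes that were not called. All 16 cytosolic points lie left of 0 in both media, VARS1 furthest at −0.68 and −0.69, while the mitochondrial points spread from −0.57 for NARS2 to 0.22 for WARS2.

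The second comparison asked the same of cells that had received erastin, using arrays that the first comparison did not. Again cytosolic synthetases were lower in siTAZ cells: 13 of 16 fell and none rose, where 12.6% of all genes fell and 15.6% rose. Without genes under the 50th percentile of signal, 1565 of 5982 fell and 1664 rose. The median over the 16 genes was −0.22, against 0.01 over all genes. The same 13 genes had fallen under vehicle, and GARS1, at −0.11 ± 0.05 (adjusted p = 0.13), was the 1 gene that had fallen there and was not called here; the test of the difference between media missed the threshold (adjusted p = 0.77). Over all genes, 9.56% fell in both media. The siTAZ and siNT arrays were separated with siTAZ lower in 15 cytosolic genes, where 17.7% of all genes were. The medians were −0.20 over the complex members and −0.23 over the free enzymes, and −0.22 over the class I and −0.19 over the class II enzymes.

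VARS1 and LARS1 had the largest changes, and these were close to those under vehicle. VARS1 read 8.76, 8.71 and 8.77 in siTAZ erastin cultures, against 9.45, 9.27 and 9.57 in siNT erastin cultures (−0.68 ± 0.07, adjusted p = 2e-05). Its dimmer probe set gave −0.27 ± 0.07 and was called. LARS1 read 9.74, 9.74 and 9.65 in siTAZ erastin and 10.32, 10.28 and 10.21 in siNT erastin cultures (−0.56 ± 0.06, adjusted p = 1.38e-05).

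FARSA, SARS1, YARS1 and TARS1 followed. FARSA read 7.95, 8.02 and 7.96 in siTAZ erastin and 8.33, 8.23 and 8.32 in siNT erastin cultures (−0.31 ± 0.06). SARS1, the serine enzyme, read 10.83, 10.77 and 10.78 in siTAZ erastin and 11.06, 11.09 and 11.16 in siNT erastin cultures (−0.31 ± 0.05). YARS1 read 12.36, 12.33 and 12.34 in siTAZ erastin and 12.60, 12.57 and 12.70 in siNT erastin cultures (−0.28 ± 0.05). In all of these the siTAZ arrays lay below every siNT array. TARS1 read 11.41, 11.30 and 11.35 in siTAZ erastin and 11.69, 11.61 and 11.59 in siNT erastin cultures (−0.28 ± 0.05). CARS1 and WARS1, among the most lowered under vehicle, changed by −0.22 ± 0.05 and −0.23 ± 0.05 here.

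Mitochondrial enzymes were again mixed, with 4 of 10 lower, 2 higher and a median of −0.03. Over all genes 12.6% were lower and 15.6% higher, so the 2 higher are near the share over all genes. HARS2 read 9.49, 9.50 and 9.57 in siTAZ erastin cultures, against 10.03, 10.11 and 10.01 in siNT erastin cultures (−0.53 ± 0.05, adjusted p = 1.42e-05). NARS2 read 7.59, 7.59 and 7.65 in siTAZ erastin and 7.95, 7.99 and 8.24 in siNT erastin cultures (−0.45 ± 0.08, adjusted p = 0.00127). IARS2 read 10.76, 10.75 and 10.79 in siTAZ erastin and 11.07, 11.09 and 11.08 in siNT erastin cultures (−0.31 ± 0.05, adjusted p = 0.000218). These 3 enzymes were thus lower in siTAZ cells in both media.

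FARS2, the mitochondrial phenylalanine enzyme, was called under erastin and not under vehicle, although the test of the difference between media missed the threshold (adjusted p = 0.781). It read 9.0, 8.95 and 9.10 in siTAZ erastin and 9.14, 9.33 and 9.36 in siNT erastin cultures (−0.26 ± 0.07, adjusted p = 0.015), and its other probe sets gave −0.05 and 0.10. WARS2 read 8.40, 8.30 and 8.45 in siTAZ erastin and 8.11, 8.22 and 8.16 in siNT erastin cultures, a rise of 0.22 ± 0.06 (adjusted p = 0.0187). CARS2, the mitochondrial cysteine enzyme, read 9.75, 9.71 and 9.71 in siTAZ erastin and 9.64, 9.49 and 9.59 in siNT erastin cultures, a rise of 0.15 ± 0.05 (adjusted p = 0.0445) that was lost in 17 of 25 other settings. AIMP1 stood at 0.17 ± 0.06 on its brighter probe set and was not called (adjusted p = 0.0566). Its other probe set gave −0.48 ± 0.08 and was called in a fit of all probe sets (adjusted p = 0.00115).

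The erastin-treated arrays of the siTAZ and siNT groups are also those that differ most in the actin 3′ to 5′ measure. With that measure as a covariate, 7 cytosolic and 2 mitochondrial enzymes were called in place of 13 and 6, the calls lost being those of AARS1, CARS1, EPRS1, HARS1, NARS1 and YARS1 and of CARS2, FARS2, NARS2 and WARS2. Leaving out 1 array gave 9 to 13 cytosolic calls, the lowest without siTAZ erastin 2, and 4 to 7 mitochondrial calls.

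HARS1 and HARS2, the cytosolic and mitochondrial histidine enzymes, are neighbours on chromosome 5, transcribed away from each other from start sites 84 bases apart. They are shown as a pair because both fell with siTAZ, HARS2 by 0.53 under erastin and 0.55 under vehicle and HARS1 by 0.15 under erastin and 0.22 under vehicle. HARS1 read 10.98, 10.97 and 10.93 in siTAZ erastin cultures, against 11.16, 11.05 and 11.13 in siNT erastin cultures, and 10.93, 10.94 and 10.91 in siTAZ vehicle cultures, against 11.16, 11.14 and 11.14 in siNT vehicle cultures. Its smaller change under erastin was lost in 10 of 25 other settings, whereas that of HARS2 was lost in none of them. The window below is the RefSeq promoter of HARS1 (GRCh38.p14, chr5:140691321-140691620, minus strand), from 250 bases before its start to 50 after. Capitals mark the 84 bases between the start sites of HARS1, to the right, and of HARS2, which is read on the other strand to the left.
HARS1 and HARS2: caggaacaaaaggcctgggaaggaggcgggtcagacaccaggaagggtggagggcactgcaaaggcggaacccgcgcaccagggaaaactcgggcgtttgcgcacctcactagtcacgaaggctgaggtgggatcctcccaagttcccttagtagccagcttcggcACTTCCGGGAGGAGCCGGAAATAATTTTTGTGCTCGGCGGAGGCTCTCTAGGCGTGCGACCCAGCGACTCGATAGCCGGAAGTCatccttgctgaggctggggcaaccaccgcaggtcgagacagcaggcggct

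The third comparison set erastin against vehicle in siNT cells. SARS1, GARS1, CARS1 and WARS1 rose and no cytosolic synthetase fell, 4 of 16 where 0.527% of all genes rose and 0.276% fell. Without genes under the 50th percentile of signal, 104 of 5982 rose and 118 fell. The median over the 16 genes was 0.15. Among the mitochondrial synthetases, limma called 0 of 10, with 1 at an unadjusted p under 0.05, and their median was −0.02.

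SARS1 read 11.06, 11.09 and 11.16 in siNT erastin cultures, against 10.82, 10.82 and 10.71 in siNT vehicle cultures (0.32 ± 0.05, adjusted p = 0.0186). GARS1, the glycine enzyme, read 12.80, 12.73 and 12.88 in siNT erastin and 12.48, 12.52 and 12.50 in siNT vehicle cultures (0.30 ± 0.05, adjusted p = 0.0183). In both, every erastin array exceeded every vehicle array. CARS1 read 12.31, 12.26 and 12.37 in siNT erastin and 12.03, 12.11 and 12.04 in siNT vehicle cultures (0.25 ± 0.05, adjusted p = 0.0379). WARS1 read 9.92, 9.82 and 9.88 in siNT erastin and 9.60, 9.66 and 9.61 in siNT vehicle cultures (0.25 ± 0.05, adjusted p = 0.0379).

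AARS1 (0.24, adjusted p = 0.0851), EPRS1 (0.20), TARS1 (0.18) and YARS1 (0.17) came next and were not called. The erastin arrays lay above the vehicle arrays without overlap in 9 of the 16 genes, where 5.92% of all genes did. The 4 calls did not survive small changes of the data: leaving out any 1 of the 12 arrays left 0 to 2 of them, and fitting the siNT arrays alone left 0.

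The fourth comparison set erastin against vehicle in siTAZ cells, and more members passed the test there. It shares the siTAZ vehicle arrays with the first comparison, so a low reading of those arrays enters both. In these cells 7 cytosolic enzymes rose, all of them free enzymes: CARS1, WARS1, GARS1, YARS1, AARS1, SARS1 and TARS1. None fell, where 0.46% of all genes rose and 0.1% fell. The 4 genes that rose in siNT cells were among them, and 0.242% of all genes rose in both siRNA groups. With genes under the 50th percentile of signal left out, 96 of 5982 rose in siTAZ cells and 61 fell. None of the 5 measured complex members was called, with EPRS1 highest at 0.24 ± 0.06 (adjusted p = 0.114). The dimmer EPRS1 probe sets gave 0.26 ± 0.05 (adjusted p = 0.0762) and 0.50 ± 0.11 (adjusted p = 0.107) in a limma fit of all probe sets. These sizes reach those of some called free enzymes, so a missed call does not show that EPRS1 was unchanged. The erastin arrays lay above the vehicle arrays without overlap in 10 of the 16 genes, where 10.9% of all genes did. Of the 10 mitochondrial enzymes limma called 0, with 0 at an unadjusted p under 0.05.

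CARS1 had the largest rise, reading 12.07, 12.10 and 12.11 in siTAZ erastin cultures, against 11.47, 11.47 and 11.48 in siTAZ vehicle cultures. Its signal was 1.54 times as high with erastin (0.62 ± 0.05, adjusted p = 3.04e-05), and its dimmer probe set gave 0.74 ± 0.08. WARS1 read 9.62, 9.62 and 9.70 in siTAZ erastin and 9.12, 9.12 and 9.13 in siTAZ vehicle cultures (0.52 ± 0.05, adjusted p = 0.000166). The dimmer WARS1 probe set gave 0.29 ± 0.08 and was not called (adjusted p = 0.231). Both genes were nearly constant within each group, so the groups were widely separated on the brighter probe sets.

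GARS1 read 12.70, 12.68 and 12.69 in siTAZ erastin and 12.21, 12.20 and 12.21 in siTAZ vehicle cultures (0.48 ± 0.05, adjusted p = 0.000401). YARS1 read 12.36, 12.33 and 12.34 in siTAZ erastin and 11.91, 11.95 and 11.97 in siTAZ vehicle cultures (0.40 ± 0.05, adjusted p = 0.00367). AARS1, the alanine enzyme, read 10.50, 10.48 and 10.50 in siTAZ erastin and 10.07, 10.16 and 10.09 in siTAZ vehicle cultures (0.38 ± 0.06, adjusted p = 0.00829). No arrays of the groups overlapped in these genes. SARS1 read 10.83, 10.77 and 10.78 in siTAZ erastin and 10.43, 10.49 and 10.44 in siTAZ vehicle cultures (0.34 ± 0.05, adjusted p = 0.0137), and TARS1 rose by 0.29 ± 0.05 (adjusted p = 0.0222). Without siTAZ vehicle 1, siTAZ vehicle 3 or siTAZ erastin 1, the count was 4 in place of 7, AARS1 losing its call each time.

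**Figure D2:**
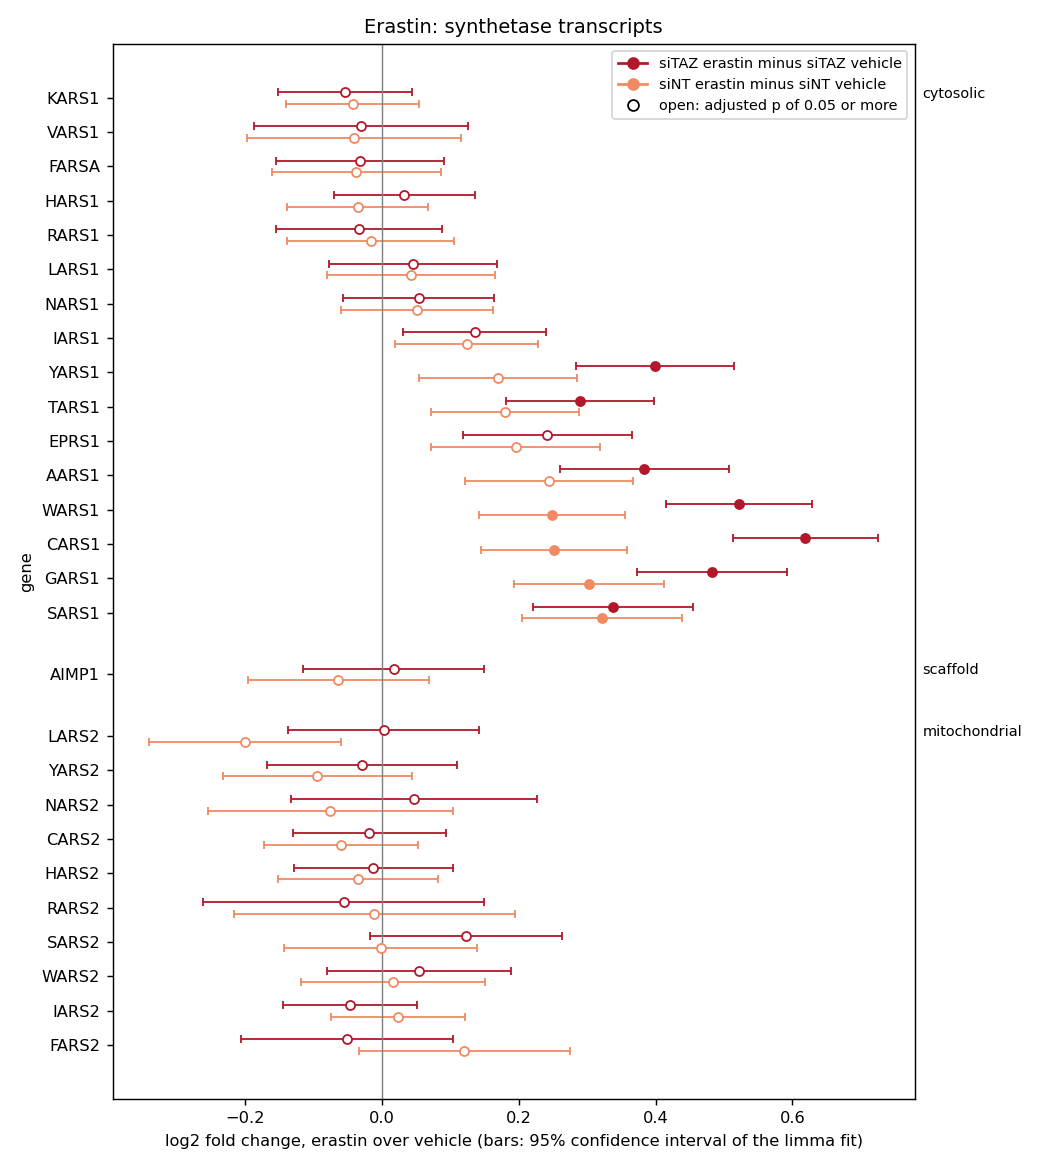
Log2 change of each measured member between erastin and vehicle in siTAZ cells (red, upper point of each pair) and in siNT cells (orange, lower point), with bars for the 95% confidence interval of the limma fit and open points for genes that were not called. The 7 filled siTAZ points run from 0.29 for TARS1 to 0.62 for CARS1, and every mitochondrial point is open.

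VARS1, LARS1, KARS1, FARSA, HARS1, NARS1 and EPRS1 fell with siTAZ in both media and were not called under erastin in either siRNA group. EPRS1 was nevertheless 0.24 ± 0.06 higher with erastin in siTAZ cells and 0.20 ± 0.06 higher in siNT cells (unadjusted p 0.00109 and 0.00475, adjusted p 0.114 and 0.195 by limma). VARS1 read 8.76, 8.71 and 8.77 in siTAZ erastin and 8.73, 8.75 and 8.85 in siTAZ vehicle cultures, a difference of −0.03 with a 95% confidence interval of −0.19 to 0.13. LARS1 differed by 0.05 (interval −0.08 to 0.17), KARS1 by −0.05 (interval −0.15 to 0.04) and FARSA by −0.03 (interval −0.15 to 0.09). HARS1 and NARS1 differed by 0.03 and 0.05. IARS1 and RARS1 were called in none of the comparisons. RARS1 was the flattest cytosolic gene, its 4 group means lying within 0.08 of each other.

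For 11 of the 16 cytosolic genes the group mean was highest in siNT erastin and lowest in siTAZ vehicle cultures, an order found in 11.1% of all genes and in none of the 10 mitochondrial enzymes, and picked out after the values were seen. In siTAZ erastin cultures, the cytosolic CARS1, WARS1, SARS1, AARS1, EPRS1 and IARS1 had group means within 0.06 of those in siNT vehicle cultures. So did the mitochondrial LARS2 and YARS2, which, like IARS1, were called in none of the comparisons. Of the other genes that rose with erastin in siTAZ cells, GARS1 stood 0.19 higher than in siNT vehicle cultures, TARS1 0.10 lower and YARS1 0.11 lower. VARS1 stood 0.72, HARS2 0.56, NARS2 0.53 and LARS1 0.52 lower than in siNT vehicle cultures. The difference between these groups was not tested, and the share of all genes within 0.06 was not computed.

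**Figure D3:**
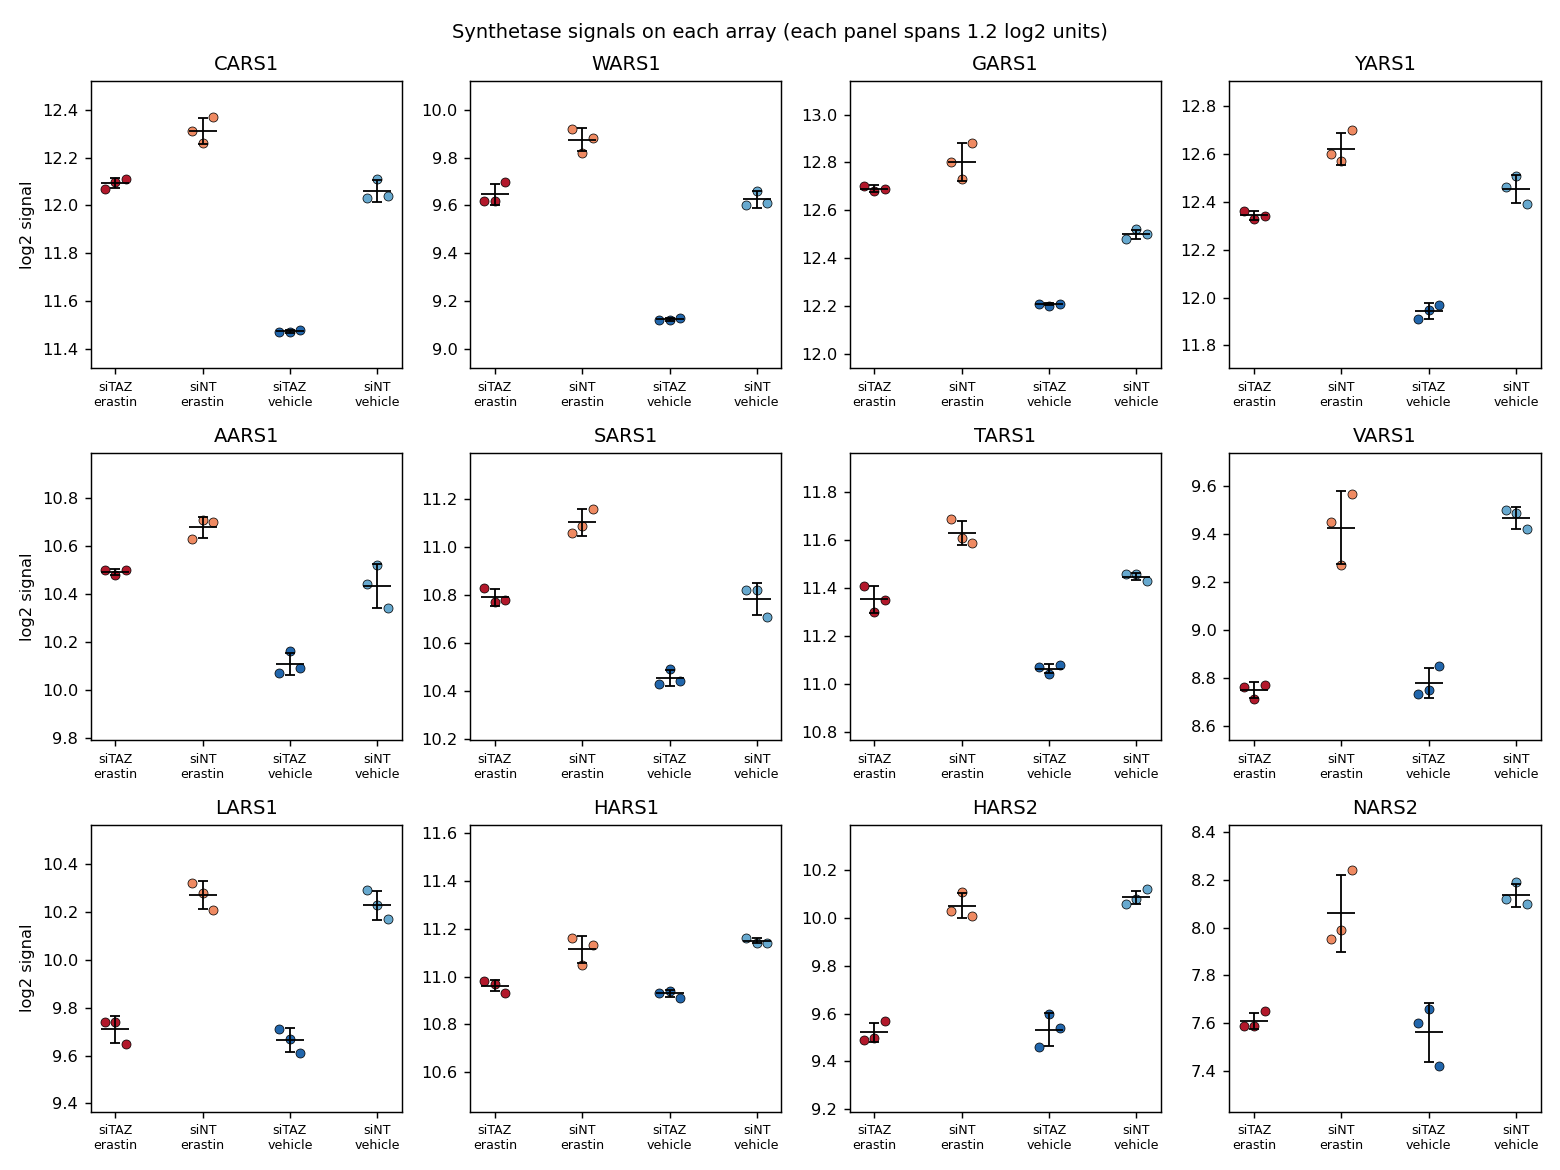
Log2 signal of 12 members on each array (points) with the group mean and SD (bars, n = 3), in siTAZ erastin, siNT erastin, siTAZ vehicle and siNT vehicle cultures from left to right; every panel spans 1.2 log2 units. In CARS1, WARS1, GARS1 and YARS1 the siTAZ vehicle arrays lie below all others, while in VARS1, LARS1, HARS2 and NARS2 the siTAZ arrays are low in both media.

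Averages over each class and array show the same layout. Relative to each gene's siNT vehicle mean, the 11 free cytosolic enzymes averaged −0.10, −0.13 and −0.11 on the siTAZ erastin arrays and 0.16, 0.10 and 0.19 on the siNT erastin arrays. They averaged −0.41, −0.39 and −0.38 on the siTAZ vehicle arrays and −0.05 to 0.04 on the siNT vehicle arrays. The 4 groups did not overlap. The 5 complex members averaged −0.17 in siTAZ erastin, 0.06 in siNT erastin and −0.24 in siTAZ vehicle cultures. The 10 mitochondrial enzymes, including RARS2 near the floor of the array, averaged −0.12 in siTAZ erastin, −0.03 in siNT erastin and −0.12 in siTAZ vehicle cultures. Among them, NARS2, HARS2 and IARS2 had the largest falls in siTAZ cells in both media.

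**Figure D4:**
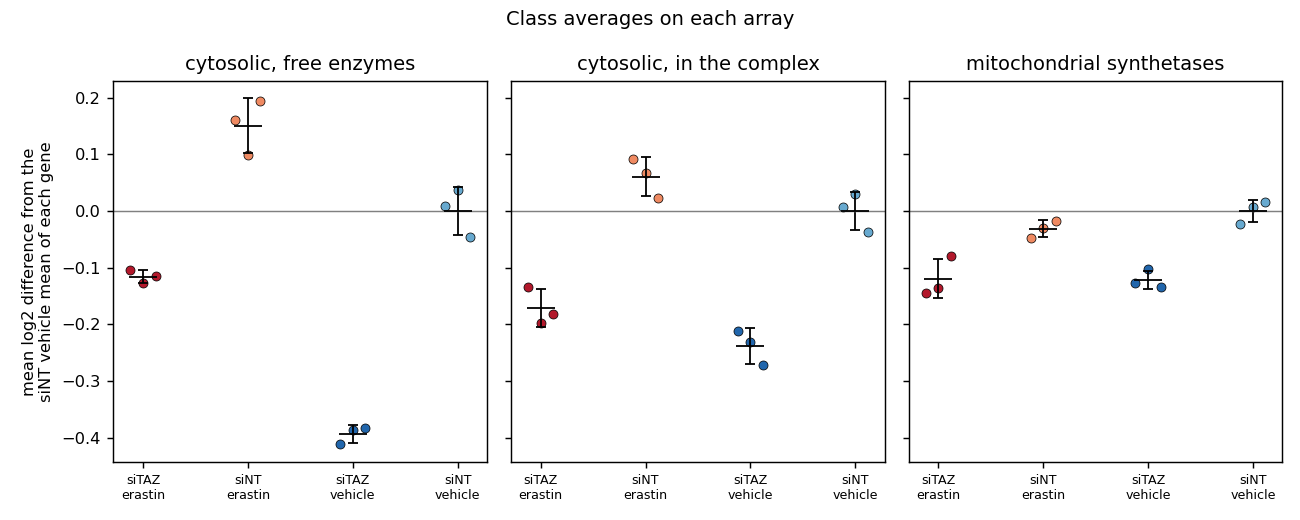
Mean log2 difference from each gene's siNT vehicle mean, averaged over the 11 free cytosolic enzymes, the 5 measured complex members and the 10 mitochondrial enzymes, for each array (points) with group mean and SD (bars, n = 3). The free enzymes are lowest in siTAZ vehicle at −0.39 and highest in siNT erastin at 0.15, while the mitochondrial average differs little between erastin and vehicle.

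Whether the erastin response itself differed between siTAZ and siNT cells was tested as the difference of the 2 responses. By limma, 0 of the 11963 genes were called, with 764 at an unadjusted p under 0.05. CARS1 came closest among the members, with a response larger by 0.37 ± 0.07 in siTAZ cells (adjusted p = 0.293). Over 24 other settings its difference ranged from 0.34 to 0.44 with adjusted p between 0.00612 and 0.922, and it was called under 2 of them. WARS1 (0.27 ± 0.07), YARS1 (0.23 ± 0.07) and GARS1 (0.18 ± 0.07) also had unadjusted p under 0.05 and were called under none of the settings, and so did the mitochondrial LARS2 (0.20 ± 0.09, adjusted p = 0.77). The dimmer WARS1 probe set gave a difference of 0.03 ± 0.11. In the fit of all arrays, a larger response in siTAZ cells was therefore not established for any single member.

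The promoters of the genes that rose were examined for the core of the C/EBP-ATF element, TGATGNAA, read on both strands. RefSeq windows (GRCh38.p14) from 250 bases before to 50 after each start were at hand for 13 of the 16 cytosolic enzymes, and not for LARS1, VARS1 and YARS1. The core was found in 6 of the 13 (46.2%): AARS1, CARS1, GARS1, IARS1, NARS1 and TARS1. Some genes have several annotated starts, each with a window, and a gene was counted when any of its windows held the core; CARS1, GARS1 and TARS1 have 2 windows each and hold it in 1 of them. It was found in 1 of 10 mitochondrial enzymes, YARS2, not in AIMP1, and in 3.43% of the 9562 genes on the array that had a window. Of the 7 genes that rose under erastin in siTAZ cells, 6 had a window and 4 held the core; of the other 9, 7 had a window and 2, IARS1 and NARS1, held it. WARS1 and SARS1 rose without a match in these windows. The 4 windows of genes that rose and held the core are printed, from the start that carries it, 5′ to 3′ on the strand of the gene, with the match in capitals; each of them carries it in reverse, as TTNCATCA. They are CARS1 at chr11:3057374-3057673 on the minus strand, where the match begins 2 bases before the start, AARS1 at chr16:70289457-70289756 on the minus strand (187 before), GARS1 at chr7:30594628-30594927 on the plus strand (33 before) and TARS1 at chr5:33440715-33441014 on the plus strand (2 after).
CARS1: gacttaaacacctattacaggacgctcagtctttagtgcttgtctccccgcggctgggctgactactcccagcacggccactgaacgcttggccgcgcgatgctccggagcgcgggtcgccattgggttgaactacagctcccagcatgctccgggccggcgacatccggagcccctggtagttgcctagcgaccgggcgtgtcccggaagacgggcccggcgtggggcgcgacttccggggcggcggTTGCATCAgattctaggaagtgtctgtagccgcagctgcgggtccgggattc
AARS1: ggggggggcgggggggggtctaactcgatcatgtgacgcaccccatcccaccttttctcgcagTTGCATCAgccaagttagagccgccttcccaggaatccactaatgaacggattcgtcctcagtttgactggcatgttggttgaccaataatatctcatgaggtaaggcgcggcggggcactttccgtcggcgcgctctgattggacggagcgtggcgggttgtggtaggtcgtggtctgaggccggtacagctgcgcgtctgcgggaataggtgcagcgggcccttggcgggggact
GARS1: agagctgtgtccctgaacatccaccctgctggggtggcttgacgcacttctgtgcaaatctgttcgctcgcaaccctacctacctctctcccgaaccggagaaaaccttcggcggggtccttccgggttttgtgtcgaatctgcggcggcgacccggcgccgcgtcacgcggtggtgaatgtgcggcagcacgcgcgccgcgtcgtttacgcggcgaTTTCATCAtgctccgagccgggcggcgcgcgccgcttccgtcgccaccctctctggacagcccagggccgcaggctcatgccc
TARS1: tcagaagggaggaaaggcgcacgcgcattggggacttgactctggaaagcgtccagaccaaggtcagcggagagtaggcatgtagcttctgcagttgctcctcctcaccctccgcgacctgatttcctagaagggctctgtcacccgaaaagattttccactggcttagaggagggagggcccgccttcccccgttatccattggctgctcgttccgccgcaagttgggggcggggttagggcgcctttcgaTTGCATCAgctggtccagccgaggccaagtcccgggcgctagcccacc

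In CARS1, AARS1 and TARS1 the match read in its own direction is TGATGCAA, and in GARS1 it is TGATGAAA. In CARS1 and TARS1 it lies at the start itself, and in AARS1 well upstream of it. CARS1 and GARS1, which rose by 0.62 and 0.48 in siTAZ cells, and IARS1 (0.14 ± 0.05) and NARS1 (0.05 ± 0.05), which were not called, thus all carry the core within the window. A match describes the letters of the reference sequence and does not show that a factor binds there.

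Other genes of tRNA charging and translation were taken from lists of named genes. Of 17 partners of tRNA charging, 4 were measured (QRSL1, GATB, GATC and XPOT) and none was called in any of the 4 comparisons. At an unadjusted p under 0.05 there was 1 value, that of XPOT, the exportin that carries tRNA out of the nucleus, at 0.27 ± 0.08 for erastin in siNT cells (adjusted p = 0.232). Of 4 measured cytosolic elongation factors, 1 was called: EEF2, which moves the ribosome along the message, fell by 0.22 ± 0.07 in siTAZ erastin against siNT erastin cultures, where 12.6% of all genes fell. Among 6 measured mitochondrial translation factors, TUFM, the mitochondrial elongation factor Tu, fell by 0.25 under erastin and by 0.23 under vehicle in siTAZ cells. MTIF2, an initiation factor, fell by 0.19 under erastin and 0.26 under vehicle in siTAZ cells, and no member of this list was called between erastin and vehicle.

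Genes listed for the sensing of uncharged tRNA and the integrated stress response were called in both directions with silencing. Of the 16 listed, EIF2AK4, the kinase that senses uncharged tRNA, and PPP1R15B were not measured by a single-gene probe set. Of 14 measured, 2 rose and 5 fell in siTAZ erastin cultures, and 2 rose and 8 fell in siTAZ vehicle cultures, each against siNT cells in the same medium. Over all genes 15.6% rose and 12.6% fell under erastin and 14.7% rose and 13.9% fell under vehicle, so the 2 that rose are near the share over all genes. EIF2AK3, the kinase PERK of the endoplasmic reticulum, rose by 0.66 ± 0.07 under erastin and 0.73 ± 0.07 under vehicle. PPP1R15A, which directs dephosphorylation of eIF2 alpha, fell by 0.55 ± 0.07 under erastin and by 0.73 ± 0.07 under vehicle. EIF2B5, the catalytic subunit of the exchange factor eIF2B, fell by 0.44 ± 0.06 under erastin and 0.47 ± 0.06 under vehicle. ATF4 read 12.73, 12.60 and 12.74 in siTAZ erastin and 12.77, 12.81 and 12.74 in siNT erastin cultures, 12.31, 12.27 and 12.23 in siTAZ vehicle cultures and 12.51, 12.46 and 12.52 in siNT vehicle cultures. ATF4 was thus lowest in siTAZ vehicle cultures, as was the average of the free synthetases. It rose with erastin by 0.42 ± 0.05 in siTAZ cells and by 0.27 ± 0.05 in siNT cells. With siTAZ it fell by 0.23 ± 0.05 under vehicle (limma adjusted p = 0.00615). Under erastin it was not called between siTAZ and siNT cells (−0.08 ± 0.05, limma adjusted p = 0.321). A link between ATF4 and the synthetases was not tested. DDIT3, a stress transcription factor gene, rose with erastin by 0.64 ± 0.09 in siTAZ and 0.60 ± 0.09 in siNT cells, and was lower in siTAZ than in siNT cells by 0.36 under erastin and 0.40 under vehicle.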

How the data were processed

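Signals came from 12 Affymetrix arrays, 3 for each of 4 groups taken from the labels, and the deposited log2 values were made by the authors with RMA (background correction, quantile normalisation and probe summary) in Affymetrix Expression Console, per the submitters' processing notes; no tool version is stated there. Quantile normalisation gave array medians of 6.48 to 6.54, so a shift of all transcripts together would not be seen, and 3 arrays a group set the precision. Of 22277 probe sets, 62 controls, 1043 listed for several genes and 2108 without a gene were left out. Each of 11963 genes was represented by its brightest probe set, judged by mean signal; 10 members had more than 1, and these were also fitted separately.

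All 12 arrays entered 1 limma fit (limma 3.58.1 in R 4.3.3; 1 mean per group, lmFit, contrasts.fit and eBayes), with 8 residual and 3.9 prior degrees of freedom and Benjamini-Hochberg adjustment over all genes of a contrast. The fit for siTAZ against siNT under vehicle was tested on simulated data. An exact permutation of 3 against 3 arrays cannot give a two-sided p below 0.1, so none was used. Alternatives were other scalings, dim-gene filters, probe set choices, eBayes settings, array weights, fewer groups, a block by replicate number, an actin covariate, a minimum change and leaving out each array. Same-numbered arrays of different groups had deviations correlating between −0.42 and 0.36, so the numbers were not taken as pairs.

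The members and all gene lists were chosen with earlier results of these data known. Array values are printed for the largest called changes of each contrast, up to 6 cytosolic and 4 mitochondrial, and for members called against most of their class; other genes come from the named lists, up to 4 per contrast. Promoter sequences are those of RefSeq, GRCh38.p14.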

Additional observations from a re-analysis of the deposited data

How the results depend on the processing

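Of the counts of called members recomputed under other settings, 219 stayed within 1.5 times the count reported and 29 moved beyond it. The 219 include counts of 0 that stayed 0, so they overstate how stable the other counts were. Reported counts were 0 for mitochondrial enzymes in both erastin comparisons, and for both classes in the difference of the responses. For siTAZ against siNT under erastin, the cytosolic count of 13 became 7 with the actin covariate and 6 with a minimum change of 0.25, and ran from 9 to 13 without 1 array. The mitochondrial count of 6 became 3 when only the compared groups were fitted and 2 with the actin covariate, and ran from 4 to 7 without 1 array. Under vehicle the cytosolic count ran from 13 to 15 and the mitochondrial count from 3 to 4 without 1 array, and the mitochondrial count was 2 with the minimum change. For erastin in siNT cells, the count of 4 became 8 with an eBayes trend, 7 with array weights, 7 without genes under the 50th percentile of signal, 2 with the probe set of largest interquartile range, 2 with the actin covariate, 0 with only the compared groups and 0 to 2 without 1 array. For erastin in siTAZ cells it ran from 4 to 7 without 1 array. The difference of the responses gave 1 cytosolic call, CARS1, without genes under the 50th percentile and 1 with the trend, and 0 in every fit without 1 array. Mitochondrial counts for both erastin comparisons were 0 in every fit without 1 array. FARS2 under erastin reversed to 0.10 on the probe set of largest interquartile range, one of the 3 whose values the report gives. The cause of these shifts was not tested.

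A fit with the replicate block, whose numbers share only a label, gave cytosolic counts of 12 and 14 for siTAZ against siNT under erastin and under vehicle. In siNT cells the erastin count was 0, and in siTAZ cells it was 5. Over all genes, the calls for erastin in siNT cells were 96 and became 39 with the replicate block, 15 with only the compared groups, 53 with the probe set of largest interquartile range, 144 and 222 without genes under the 25th and 50th percentiles, 181 with the trend and 324 with array weights. For erastin in siTAZ cells, 67 calls became 34 with the block, 41 with the probe set of largest interquartile range, 157 without genes under the 50th percentile, 163 with the trend and 166 with array weights. Without 1 array these counts ran from 30 to 79 and from 30 to 81. Other settings gave up to 11 calls for the difference of the responses. Signal near the floor of the array limits RARS2, for which no size is given.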
